A study of Mus musculus with 8 samples.

Results

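Genes of potassium and calcium handling were followed across the cell types of the mouse aortic wall. The 10 genes, of 32285 genes measured, were taken by symbol: Kcnma1, Kcnmb1, Kcnk3, Kcnj8, Abcc9, Cacna1c, Itpr1, Ryr2, Pln and Atp2a2. Mural cells are the contractile cells of vessels, smooth muscle cells in the media and pericytes on capillaries and venules. Potassium channels set their membrane potential, and that potential sets how much calcium enters through L-type channels. Calcium released from the sarcoplasmic reticulum adds to this signal, a pump returns it to the store, and brief release events also open calcium-activated potassium channels that relax the cell.

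Single cells came from 3 aged wildtype mice of 81, 84 and 88 weeks, from the ascending thoracic aorta near the heart. They were pooled in 1 suspension after hashtag antibodies, barcoded antibodies that stick to the cell surface, had marked each animal. That pool gave 8 libraries, 4 of gene expression and 4 of hashtags, whose values are merged in 1 matrix. All animals were aged and untreated as far as the labels say, so the comparisons were between cell classes of the same animals. Pericyte-like cells were set against smooth muscle-like cells, and these against fibroblast-like and endothelial-like cells.

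The matrix held 142108011 gene UMIs (unique molecular identifiers, which count captured RNA molecules once) in 26916 barcodes, each barcode listed once. The 10121 cells kept had 93799720 UMIs and fell into clusters formed without the 10 genes and without the pathway lists used below. Classes were named "-like" from marker genes. There were 119 pericyte-like, 4762 smooth muscle-like, 1247 fibroblast-like, 1063 endothelial-like and 1944 T cell-like cells, with median UMIs per cell of 7075, 11188, 7538, 4112 and 3840.5 in that order. A hashtag was called in 19.3% of pericyte-like, 9.95% of smooth muscle-like and 15.6% of fibroblast-like cells, against 89.7% of endothelial-like and 90.3% of T cell-like cells, so most mural cells could not be given to an animal. A level is given as CPM, the UMIs of a gene per 1e6 UMIs of the group, with a 95% exact Poisson interval that covers counting error only. The pericyte-like class rested on few cells, and its marker sums were mixed. Its 12 pericyte markers summed to 6139 CPM, against 825 CPM in smooth muscle-like cells, with 12 of 12 above 0. Its smooth muscle markers summed to 36113 CPM, against 45220 CPM in smooth muscle-like cells. Fibroblast markers summed to 2422 CPM in pericyte-like cells, against 1130 CPM in smooth muscle-like cells, and erythroid markers to 5230 CPM in pericyte-like cells, against 825 CPM in smooth muscle-like cells. A UMI of 10 T cell genes was present in 65.5% of pericyte-like and 55.2% of smooth muscle-like cells, with summed levels of 284 CPM in pericyte-like cells, against 72.2 CPM in smooth muscle-like cells. The cardiomyocyte markers were near 0 in both classes, 17.9 CPM in pericyte-like cells, against 28.1 CPM in smooth muscle-like cells, and Myh6, Nppa, Tnni3, Mb, Myl3 and Sbk2 were at 0 in pericyte-like cells. The part of this other RNA in the levels below was not tested.

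The 10 genes lie on 6 mouse chromosomes in RefSeq GRCm38.p6, and all are protein coding. Kcnj8 (chr6:142564837-142571614) and Abcc9 (chr6:142587862-142702766) are neighbours, 16247 bases apart with 0 annotated genes between them. Itpr1 (chr6:108213083-108551116) and Cacna1c (chr6:118587240-119197384) lie on the same chromosome. Kcnk3 (chr5:30588170-30625270) and Atp2a2 (chr5:122453513-122502225) share chromosome 5. Pln is at chr10:53337686-53345999, Kcnmb1 at chr11:33962955-33973641, Ryr2 at chr13:11553099-12106945 and Kcnma1 at chr14:23292288-24005110. Promoter sequences of RefSeq were matched by symbol for 7 of the 10 genes. Those of Pln and Kcnj8 are shown because these genes divided the pericyte-like cells. Each is the 250 bases before the annotated start, 5′ to 3′ on the gene's own strand, with capitals marking a TATAAA match.
Pln, chr10:53337436-53337685, plus strand: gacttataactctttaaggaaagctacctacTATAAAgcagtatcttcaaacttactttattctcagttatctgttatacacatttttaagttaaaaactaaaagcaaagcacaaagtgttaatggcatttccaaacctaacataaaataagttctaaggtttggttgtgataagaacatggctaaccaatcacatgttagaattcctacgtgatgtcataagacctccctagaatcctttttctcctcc
Kcnj8, chr6:142571615-142571864, minus strand: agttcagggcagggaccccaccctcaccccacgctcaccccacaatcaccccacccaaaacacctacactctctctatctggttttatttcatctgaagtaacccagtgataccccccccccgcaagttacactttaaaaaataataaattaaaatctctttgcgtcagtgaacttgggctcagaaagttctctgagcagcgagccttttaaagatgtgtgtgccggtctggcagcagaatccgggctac
The windows were 32.8% G and C for Pln and 49.2% for Kcnj8. The TATAAA match of Pln began 219 bases before its start. Both strands were searched for TATAAA, for CACGTG, for CANNTG and for the CArG box, the sequence bound by serum response factor, and a CACGTG match is also a CANNTG match. Of 32851 windows of this length over all promoters in the table, 12.4% held TATAAA, 6.02% held CACGTG, 66.2% held CANNTG and 1.47% held a CArG box. Neither a CArG box nor CACGTG was found in the windows of the 7 genes. CANNTG occurred once in the Pln window, 59 bases before the start, and once in that of Kcnj8, 160 bases before it.

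**Figure D1:**
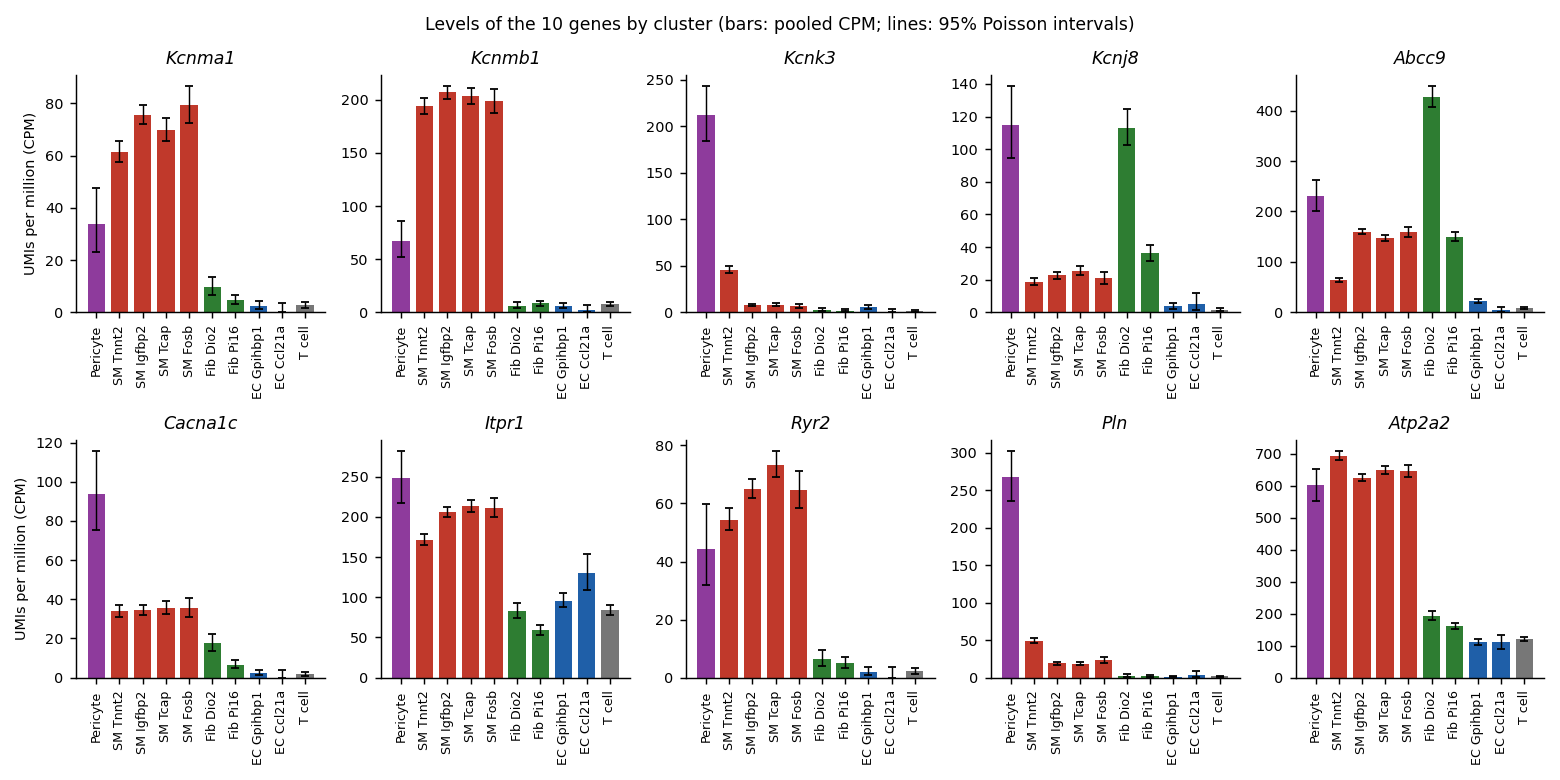
Level of each gene (CPM, vertical axis, from 0) in the pericyte-like cluster, the 4 smooth muscle-like clusters, 2 fibroblast-like clusters, 2 endothelial-like clusters and the T cell-like class, 1 panel per gene. Bars are pooled levels and lines their 95% Poisson intervals, which cover counting error only. Kcnk3, Pln and Cacna1c stood highest in the pericyte-like cluster, Kcnma1 and Kcnmb1 in smooth muscle-like clusters, and Abcc9 in the Dio2-led fibroblast-like cluster.

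Both genes of the large-conductance calcium-activated potassium channel were higher in smooth muscle-like than in pericyte-like, fibroblast-like, endothelial-like and T cell-like cells. Kcnma1 encodes its pore-forming subunit and Kcnmb1 the beta subunit that raises its calcium sensitivity in smooth muscle. Kcnma1 had 33.8 CPM (23.1 to 47.7) in pericyte-like cells and 71.0 CPM (68.8 to 73.2) in smooth muscle-like cells, against 6.48 CPM in fibroblast-like, 1.92 CPM in endothelial-like and 2.66 CPM in T cell-like cells. Kcnmb1 had 67.6 CPM (52.0 to 86.3) in pericyte-like cells and 202 CPM (198 to 205) in smooth muscle-like cells, against 7.60 CPM in fibroblast-like, 5.58 CPM in endothelial-like and 7.48 CPM in T cell-like cells. The intervals of fibroblast-like and T cell-like cells overlapped for Kcnmb1, so these neighbours in the order did not differ beyond counting error. The pair separated outside the mural cells. Chondrocyte- and tendon-like cells (98 cells) had Kcnma1 at 59.1 CPM, 83.3% of the smooth muscle-like level (62.1 to 109), and Kcnmb1 at 18.2 CPM, 9.02% of it (5.15 to 14.7). An epithelial-like cluster of 27 cells led by thymic epithelial genes likewise had Kcnma1 at 75.1 CPM (31 UMIs) and Kcnmb1 at 17.0 CPM.

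Within the animals the pair was steady. Kcnmb1 had 186, 199 and 218 CPM in smooth muscle-like cells of the 81, 84 and 88 week animals, against 6.30, 5.01 and 16.2 CPM in fibroblast-like and 9.46, 4.65 and 4.34 CPM in endothelial-like cells. Kcnma1 had 70.5, 64.3 and 71.6 CPM in smooth muscle-like cells, against 6.30, 6.02 and 5.405 CPM in fibroblast-like and 3.15, 1.39 and 1.08 CPM in endothelial-like cells. Neither gene's smooth muscle-like values overlapped those of the other classes. These sets are the cells with exactly 1 hashtag. For smooth muscle-like cells they held 111, 195 and 168 cells at 81, 84 and 88 weeks. Of these, 33, 17 and 49 had at least 2 times the hashtag cutoff. Many cells of the sets held a UMI of the T cell genes. With such cells left out, 50, 59 and 71 smooth muscle-like cells remained at 81, 84 and 88 weeks. Fibroblast-like sets fell from 32, 118 and 44 to 20, 21 and 13 cells. Endothelial-like sets fell from 244, 408 and 301 to 121, 197 and 138 cells. The part of T cell RNA in the levels by animal was not tested. The quasi-likelihood test of edgeR compared the summed UMIs of the sets with the animal as a block and Benjamini-Hochberg adjustment over all genes. Genes were called at an adjusted p below 0.05 with a log2 fold change of 1 or more in size. The p-values rest on 3 hashtag sets, and edgeR draws the spread of each gene toward that of the other genes. They therefore do not measure a gene's own spread between animals alone. Kcnmb1 was higher in smooth muscle-like than in fibroblast-like cells by a log2 fold change of 4.84 ± 0.25 (SE; edgeR adjusted p = 3.0e-15), and Kcnma1 by 3.65 ± 0.31 (adjusted p = 9.4e-11). Over endothelial-like cells the log2 fold changes in edgeR were 5.20 ± 0.20 for Kcnmb1 (adjusted p = 1.8e-13) and 5.34 ± 0.28 for Kcnma1 (adjusted p = 1.0e-11).

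Of all genes tested against fibroblast-like cells, 11.3% were called higher in smooth muscle-like cells (1106 of 9799) and 14.1% lower (1380). All 10 members were tested, with 8 called higher and 0 lower. Against endothelial-like cells 17.5% of genes were called higher (1903 of 10876) and 17.8% lower (1935), and 10 of 10 members were called higher, each in 3 of 3 sets. The median log2 fold change of the members was 2.75 over fibroblast-like and 3.44 over endothelial-like cells, against -0.01 over all genes tested in both comparisons. The first of these medians was the same with Pln, which had no UMI in the fibroblast-like sets, at its lower bound. The low-count filter passes a gene that is high in either class alone. Pln thus entered through the smooth muscle-like sets, and a member that enters so could hardly be called lower. How many members entered this way was not counted, so their counts and medians are a description. Genes that vary together with the members could shape the clusters, so these differences are not independent of the grouping. The share of all genes tested with sets that do not overlap between classes was not counted. Sets that lie apart are therefore not read as particular to the members.

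**Figure D2:**
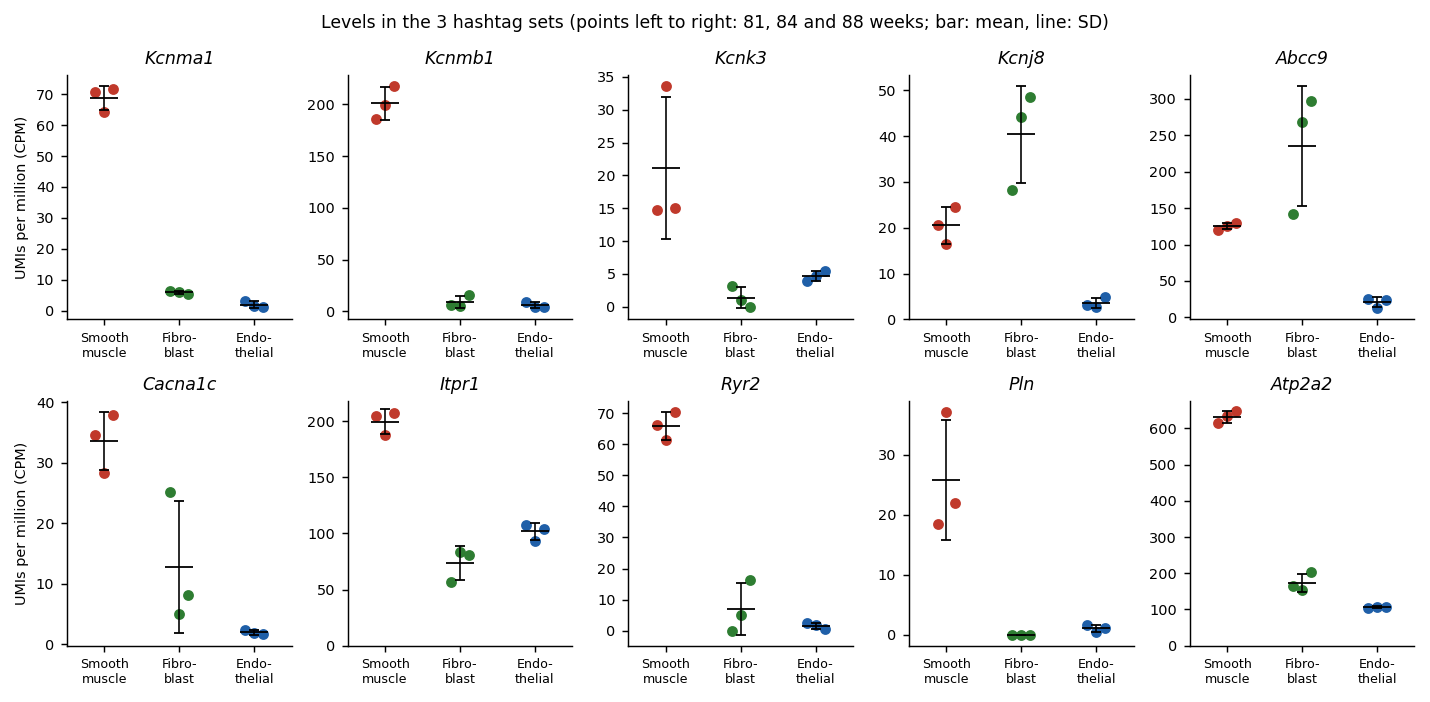
Level of each gene (CPM, vertical axis, from 0) in smooth muscle-like, fibroblast-like and endothelial-like cells, 1 panel per gene. Points are the hashtag sets of the 81, 84 and 88 week animals from left to right, bars their means and lines the SD (n = 3 sets). Smooth muscle-like sets lay above both other classes for 8 genes, while Kcnj8 and Abcc9 stood highest in fibroblast-like sets. How many of all genes tested had sets that lay apart in this way was not counted.

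**Figure D3:**
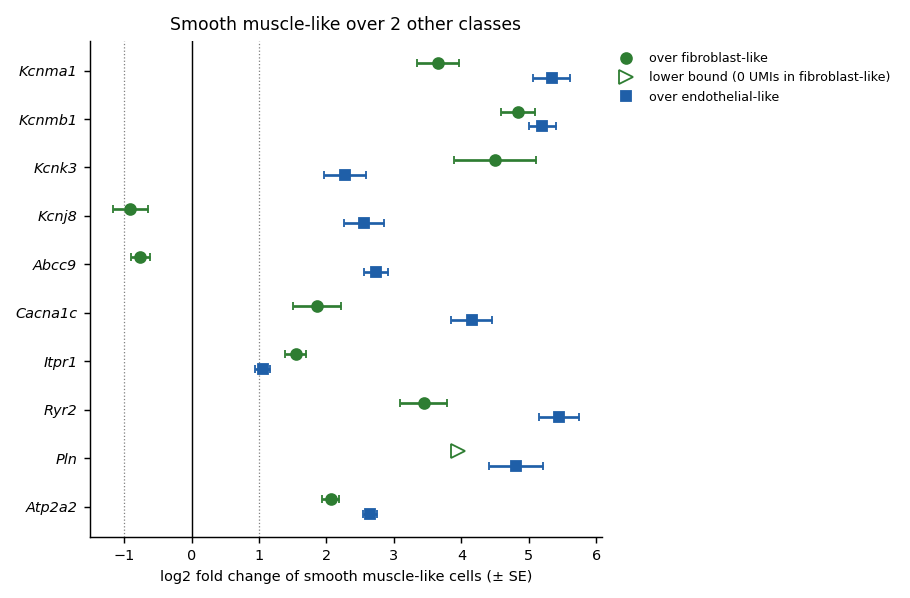
Log2 fold change (horizontal axis) of each gene in smooth muscle-like over fibroblast-like cells (circles) and over endothelial-like cells (squares), with lines for the SE of the edgeR fit on 3 hashtag sets. The open triangle is the lower bound for Pln over fibroblast-like cells, and dotted lines mark -1 and 1. Kcnj8 at -0.91 and Abcc9 at -0.76 lay inside the lines, and all 10 genes lay above 1 over endothelial-like cells.

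Kcnk3, a background potassium channel that is open at rest, was the member with the largest ratio of pericyte-like to smooth muscle-like levels. It had 212 CPM (184 to 244) in pericyte-like cells and 17.4 CPM (16.3 to 18.5) in smooth muscle-like cells, a ratio of 12.2 (exact interval 10.4 to 14.2, counting error only). The remaining named classes were lower: 4.36 CPM in endothelial-like, 2.03 CPM in fibroblast-like and 1.54 CPM in T cell-like cells, and erythroid-like barcodes had 9.75 CPM. Endothelial-like cells exceeded T cell-like cells by a ratio of 2.84 (1.44 to 5.79). All 25 endothelial UMIs of Kcnk3 fell outside the Ccl21a-led cluster, with 5.29 CPM in the Gpihbp1-led cluster and 0 in the Ccl21a-led one. The animals differed more for Kcnk3 than for the channel pair above. In smooth muscle-like cells it averaged 21.1 ± 10.9 CPM (SD, n = 3 sets), against 201 ± 16.1 CPM for Kcnmb1. They had 14.7, 33.7 and 15.04 CPM in the 81, 84 and 88 week animals, against 3.15, 1.00 and 0 CPM in fibroblast-like and 3.94, 4.65 and 5.42 CPM in endothelial-like cells. The 84 week set was the high one in smooth muscle-like cells, and no set overlapped another class. The fibroblast-like sets held 2 UMIs in all against 141 in the smooth muscle-like sets, a ratio of 19.3 (exact interval 5.23 to 161), with an edgeR adjusted p of 5.4e-07. Over endothelial-like cells the log2 fold change in edgeR was 2.27 ± 0.31 (adjusted p = 4.5e-06).

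Kcnj8 and Abcc9 together make the ATP-sensitive potassium channel of vessels, Kcnj8 its pore and Abcc9 the sulfonylurea receptor subunit around it, and both are known as pericyte genes in other mouse organs. In the aortic wall they were not restricted to mural cells. Kcnj8 had 115 CPM (94.5 to 139) in pericyte-like cells and 22.2 CPM (20.9 to 23.4) in smooth muscle-like cells, against 65.0 CPM (60.1 to 70.3) in fibroblast-like, 4.01 CPM in endothelial-like and 1.43 CPM in T cell-like cells. Abcc9 had 230.2 CPM (201 to 263) in pericyte-like cells and 133 CPM (130 to 136) in smooth muscle-like cells, against 254 CPM (244 to 264) in fibroblast-like, 18.8 CPM in endothelial-like and 8.09 CPM in T cell-like cells. Pericyte-like cells thus stood above fibroblast-like cells for Kcnj8, by a ratio of 1.77 (1.43 to 2.17), while the ratio for Abcc9, 0.906 (0.785 to 1.04), did not exceed counting error. Mesothelial-like cells (48 cells) came next for Kcnj8 with 32.7 CPM (18 UMIs), an interval that overlapped the smooth muscle-like one.

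In every animal the level in fibroblast-like cells was above that in smooth muscle-like cells for both subunits, though from few UMIs at 81 weeks. Abcc9 had 121, 126 and 129 CPM in smooth muscle-like cells of the 81, 84 and 88 week animals, against 142, 268 and 297 CPM in fibroblast-like and 25.2, 12.6 and 24.4 CPM in endothelial-like cells. Kcnj8 had 20.6, 16.5 and 24.6 CPM in smooth muscle-like cells, against 28.3, 44.1 and 48.6 CPM in fibroblast-like and 3.15, 2.79 and 4.88 CPM in endothelial-like cells. The 3 fibroblast-like sets lay above the 3 smooth muscle-like sets for each gene, and the 81 week set was the closest. That set held 9 Kcnj8 and 45 Abcc9 UMIs, and whether its differences exceeded counting error was not tested. In edgeR the log2 fold change of smooth muscle-like over fibroblast-like cells was -0.76 ± 0.15 for Abcc9 (adjusted p = 1.1e-04) and -0.91 ± 0.25 for Kcnj8 (adjusted p = 0.0050), both short of the minimum fold for a call. Without the 81 week set Kcnj8 passed it, at -1.07 (edgeR adjusted p = 5.1e-04). Over endothelial-like cells edgeR gave 2.73 ± 0.18 for Abcc9 (adjusted p = 3.0e-10) and 2.55 ± 0.30 for Kcnj8 (adjusted p = 7.5e-07).

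Among fibroblast-like cells the pair was concentrated in 1 cluster. The Dio2-led cluster (492 cells) had Abcc9 at 427 CPM and Kcnj8 at 113 CPM, against 150.01 CPM and 36.2 CPM in the Pi16-led cluster (755 cells). The ratios were 2.85 for Abcc9 (2.63 to 3.09) and 3.13 for Kcnj8 (2.65 to 3.70). Cacna1c went with them, at 17.5 CPM in the Dio2-led and 6.65 CPM in the Pi16-led cluster. Sub-clusters of the Dio2-led cluster all held both subunits, Abcc9 between 274 and 529.6 CPM and Kcnj8 between 73.7 and 218 CPM. The cluster labels here come from gene expression of the same cells, so these values are a description.

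Cacna1c encodes the pore of the L-type calcium channel, the main voltage-gated route of calcium into vascular smooth muscle. It had 94.0 CPM (75.5 to 116) in pericyte-like cells and 34.7 CPM (33.2 to 36.3) in smooth muscle-like cells, a ratio of 2.71 (2.16 to 3.35). The order went on with erythroid-like barcodes at 24.2 CPM, fibroblast-like cells at 10.7 CPM, mesothelial-like cells at 9.08 CPM, chondrocyte- and tendon-like cells at 5.69 CPM, epithelial-like cells at 2.39 CPM, endothelial-like cells at 1.92 CPM and T cell-like cells at 1.64 CPM, and the intervals of neighbours from fibroblast-like cells on overlapped. Schwann- and neural-like cells (17 cells) gave 34.5 CPM from 3 UMIs, with an interval of 7.11 to 101. Smooth muscle-like cells of the 81, 84 and 88 week animals had 34.5, 28.3 and 37.8 CPM, against 25.2, 5.01 and 8.11 CPM in fibroblast-like and 2.36, 1.86 and 1.63 CPM in endothelial-like cells. The 81 week fibroblast-like set came close to the smooth muscle-like ones without overlapping them. The log2 fold change in edgeR was 1.86 ± 0.36 over fibroblast-like (adjusted p = 1.1e-04) and 4.15 ± 0.31 over endothelial-like cells (adjusted p = 1.5e-09). Without the cells that held a UMI of the 10 T cell genes, the first was 1.17 (edgeR adjusted p = 0.16).

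The store release channels differed in how far they were shared with other cells. Itpr1 encodes an inositol trisphosphate receptor, which releases calcium when receptors signal through phospholipase C, and Ryr2 a ryanodine receptor, which releases calcium in response to calcium itself. Itpr1 was present in every class, with 248 CPM (217 to 282) in pericyte-like cells and 199.9 CPM (196 to 204) in smooth muscle-like cells, against 68.3 CPM in fibroblast-like, 102 CPM in endothelial-like and 84.0 CPM in T cell-like cells. Ryr2 had 44.3 CPM (31.96 to 59.9) in pericyte-like cells and 64.4 CPM (62.4 to 66.6) in smooth muscle-like cells, against 5.57 CPM in fibroblast-like, 1.57 CPM in endothelial-like and 2.25 CPM in T cell-like cells. The intervals of Ryr2 in the last pair overlapped. Itpr1 also varied outside the mural cells: the Rag1-led T cell-like cluster had 137 CPM, against 74.5, 63.4 and 63.6 CPM in the other T cell-like clusters, and the Ccl21a-led endothelial-like cluster had 129.9 CPM, against 96.0 CPM in the Gpihbp1-led one (ratio 1.35, 1.10 to 1.65).

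By animal, Itpr1 had 205, 187 and 207 CPM in smooth muscle-like cells of the 81, 84 and 88 week animals, against 56.7, 83.2 and 81.1 CPM in fibroblast-like and 108, 93.4 and 104 CPM in endothelial-like cells. Ryr2 had 66.1, 61.2 and 70.2 CPM in smooth muscle-like cells, against 0, 5.01 and 16.2 CPM in fibroblast-like and 2.36, 1.86 and 0.542 CPM in endothelial-like cells. No set of either gene overlapped between smooth muscle-like cells and another class. In edgeR the log2 fold change over fibroblast-like cells was 1.54 ± 0.15 for Itpr1 (adjusted p = 2.8e-09) and 3.44 ± 0.35 for Ryr2 (adjusted p = 3.7e-09). Over endothelial-like cells edgeR gave 5.44 ± 0.29 for Ryr2 (adjusted p = 1.7e-11) and 1.05 ± 0.11 for Itpr1 (adjusted p = 1.7e-07), which is near the minimum fold and fell under it at 0.83 without doublet removal.

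Uptake into the store runs through the pump encoded by Atp2a2, which phospholamban, the product of Pln, holds back until it is phosphorylated. Atp2a2 was present in every class, with 602 CPM (553 to 653) in pericyte-like cells and 651 CPM (644 to 657) in smooth muscle-like cells, against 174 CPM in fibroblast-like, 110.2 CPM in endothelial-like and 121 CPM in T cell-like cells. Pln had 267 CPM (235 to 302) in pericyte-like cells and 27.0 CPM (25.7 to 28.4) in smooth muscle-like cells, against 2.03 CPM in fibroblast-like, 1.22 CPM in endothelial-like and 1.64 CPM in T cell-like cells. The last 3 had overlapping intervals. The ratio of pericyte-like to smooth muscle-like levels was 0.925 (0.850 to 1.00) for Atp2a2 and 9.88 (8.62 to 11.3) for Pln. A sub-cluster of 31 pericyte-like cells led by Sorbs2, whose smooth muscle markers summed to more than those of smooth muscle-like cells, held 216 of the 253 Pln UMIs. Without it Pln had 60.2 CPM (42.4 to 83.0) in the other 88 pericyte-like cells, a ratio of 2.23 (1.56 to 3.08). Atp2a2 had 477 CPM in these 88 cells, a ratio of 0.733 (0.651 to 0.822). Pln UMIs of the pericyte-like class were uneven between animals, 0 UMIs at 81 weeks, 52 at 84 weeks and 1 at 88 weeks, with 200 in cells without a hashtag.

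Smooth muscle-like cells of the 81, 84 and 88 week animals had Atp2a2 at 614, 633 and 648 CPM, against 164, 153 and 203 CPM in fibroblast-like and 104, 108 and 108 CPM in endothelial-like cells. Pln had 18.4, 37.1 and 21.9 CPM in smooth muscle-like cells, against 0 CPM in all 3 fibroblast-like sets and 1.58, 0.465 and 1.08 CPM in endothelial-like cells. Neither gene overlapped between classes, and Pln, like Kcnk3, was highest in the 84 week smooth muscle-like set. Pln had 170 UMIs in the smooth muscle-like and 0 in the fibroblast-like sets, at least 15.5-fold higher with a floor of 3 UMIs over the fibroblast-like sets. Atp2a2 had a log2 fold change in edgeR of 2.07 ± 0.12 over fibroblast-like cells (adjusted p = 7.1e-14) and of 2.64 ± 0.11 over endothelial-like cells (adjusted p = 3.1e-13). Over endothelial-like cells edgeR gave 4.81 ± 0.40 for Pln (adjusted p = 9.1e-09).

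Set side by side, pericyte-like cells had higher pooled levels than smooth muscle-like cells for Kcnk3, Pln, Kcnj8, Cacna1c, Abcc9 and Itpr1 and lower ones for Ryr2, Kcnma1 and Kcnmb1. The order of the ratios depended on the Sorbs2-led sub-cluster, which had the highest summed smooth muscle markers. Without it the ratios were 16.4 for Kcnk3 (13.9 to 19.3), 7.78 for Kcnj8 (6.32 to 9.49), 2.45 for Abcc9 (2.12 to 2.82) and 2.23 for Pln. That of Itpr1 was then 0.985 (0.816 to 1.18) and no longer differed from 1 beyond counting error, and those of the genes lower in pericyte-like cells were smaller, 0.252 for Ryr2, 0.115 for Kcnma1 and 0.0887 for Kcnmb1. The Dpt-led sub-cluster stayed in, with summed markers of 1807 CPM for pericytes, 43308 CPM for smooth muscle and 7967 CPM for fibroblasts. Its Kcnk3 level was high, as given below, so the ratio of 16.4 does not describe cells with pericyte markers alone. With all 119 cells the smaller ratios were 1.74 for Abcc9 (1.51 to 1.99), 1.24 for Itpr1 (1.09 to 1.41), 0.688 for Ryr2 (0.495 to 0.932), 0.476 for Kcnma1 (0.325 to 0.673) and 0.335 for Kcnmb1 (0.258 to 0.428), and that for Kcnj8 was 5.19 (4.23 to 6.32). The ratio of Itpr1 was 0.889 among cells without a UMI of the 10 T cell genes, which held 41 pericyte-like cells, and that of Ryr2 was 0.229 there, from 4 UMIs. At 1000 UMIs per cell, which every kept cell reached, Kcnk3 was found in 21.0% of pericyte-like and 1.83% of smooth muscle-like cells, against 0.154% of T cell-like cells as background. Kcnj8 was found in 11.8% of pericyte-like, 2.18% of smooth muscle-like and 0.103% of T cell-like cells. Pln was found in 10.9% of pericyte-like, 2.35% of smooth muscle-like and 0.154% of T cell-like cells. Kcnmb1 was found in 5.88% of pericyte-like, 18.02% of smooth muscle-like and 0.772% of T cell-like cells. At full depth the shares for Kcnk3 were 58.0% of pericyte-like and 13.4% of smooth muscle-like cells. For Kcnj8 they were 28.6% of pericyte-like and 21.1% of smooth muscle-like cells, for Pln 31.1% of pericyte-like and 17.6% of smooth muscle-like cells, and for Kcnmb1 23.5% of pericyte-like and 83.8% of smooth muscle-like cells. The order was the same in both kinds of share for these 4 genes.

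The animals could not be compared in the same way, since 8, 11 and 4 pericyte-like cells had the hashtags of the 81, 84 and 88 week animals. With cells of up to 25% mitochondrial UMIs, 2 animals had at least 10 pericyte-like cells, 10 at 81 weeks and 13 at 84 weeks. The animals gave different cells: under 15% mitochondrial UMIs, 8 of the 11 pericyte-like cells of the 84 week animal fell into a sub-cluster of 9 cells with T cell markers at 2095 CPM and 2 into the Sorbs2-led one, while 0 of the 8 cells of the 81 week animal fell into either. The part of this in the values below was not tested. There edgeR called 3.22% of 8066 genes higher (260) and 3.16% lower (255) in pericyte-like cells, with 2 members higher, 1 lower and 7 neither. Kcnk3 had 355 and 107 CPM in pericyte-like cells at 81 and 84 weeks, against 12.2 and 30.1 CPM in smooth muscle-like cells, a log2 fold change of 3.15 ± 0.46 (edgeR adjusted p = 9.5e-10). Pln had 0 and 563 CPM in pericyte-like cells, against 17.1 and 32.6 CPM in smooth muscle-like cells, and its 2.94 ± 0.47 (edgeR adjusted p = 4.4e-08) came from the 84 week animal alone, with the 81 week animal the other way. Kcnmb1 had 24.5 and 116 CPM in pericyte-like cells, against 194 and 193 CPM in smooth muscle-like cells, a log2 fold change of -1.63 ± 0.46 (edgeR adjusted p = 0.0099). Kcnj8 had 85.7 and 58.2 CPM in pericyte-like cells, against 19.0 and 18.8 CPM in smooth muscle-like cells, and missed the threshold at 1.71 ± 0.66 (edgeR adjusted p = 0.12). Both animals had the higher level in pericyte-like cells for Kcnk3, Kcnj8, Cacna1c and Abcc9, but of these only Kcnk3 was called. The edgeR adjusted p was 0.24 for Cacna1c and 0.52 for Abcc9. At 81 weeks Cacna1c had 48.9 CPM in the 10 pericyte-like cells, against 35.5 CPM in smooth muscle-like cells. The share of all genes higher in both animals was not counted.

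The pericyte-like class was not uniform, and its genes fell into different cells. It was divided into 6 sub-clusters, without the 10 genes, after the class had been looked at, and these are described with no test. In falling order of summed pericyte markers they were led by Ptn (19 cells, 16970 CPM), Ccl11 (17 cells, 11792 CPM), Pde10a (28 cells, 9381 CPM), Gm4258 (9 cells, T cell markers at 2095 CPM), Sorbs2 (31 cells, 1962 CPM) and Dpt (15 cells, 1807 CPM). Summed smooth muscle markers ran from 5018 CPM in the Ptn-led to 54374 CPM in the Sorbs2-led sub-cluster, and the Dpt-led one had fibroblast markers at 7967 CPM.

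**Figure D4:**
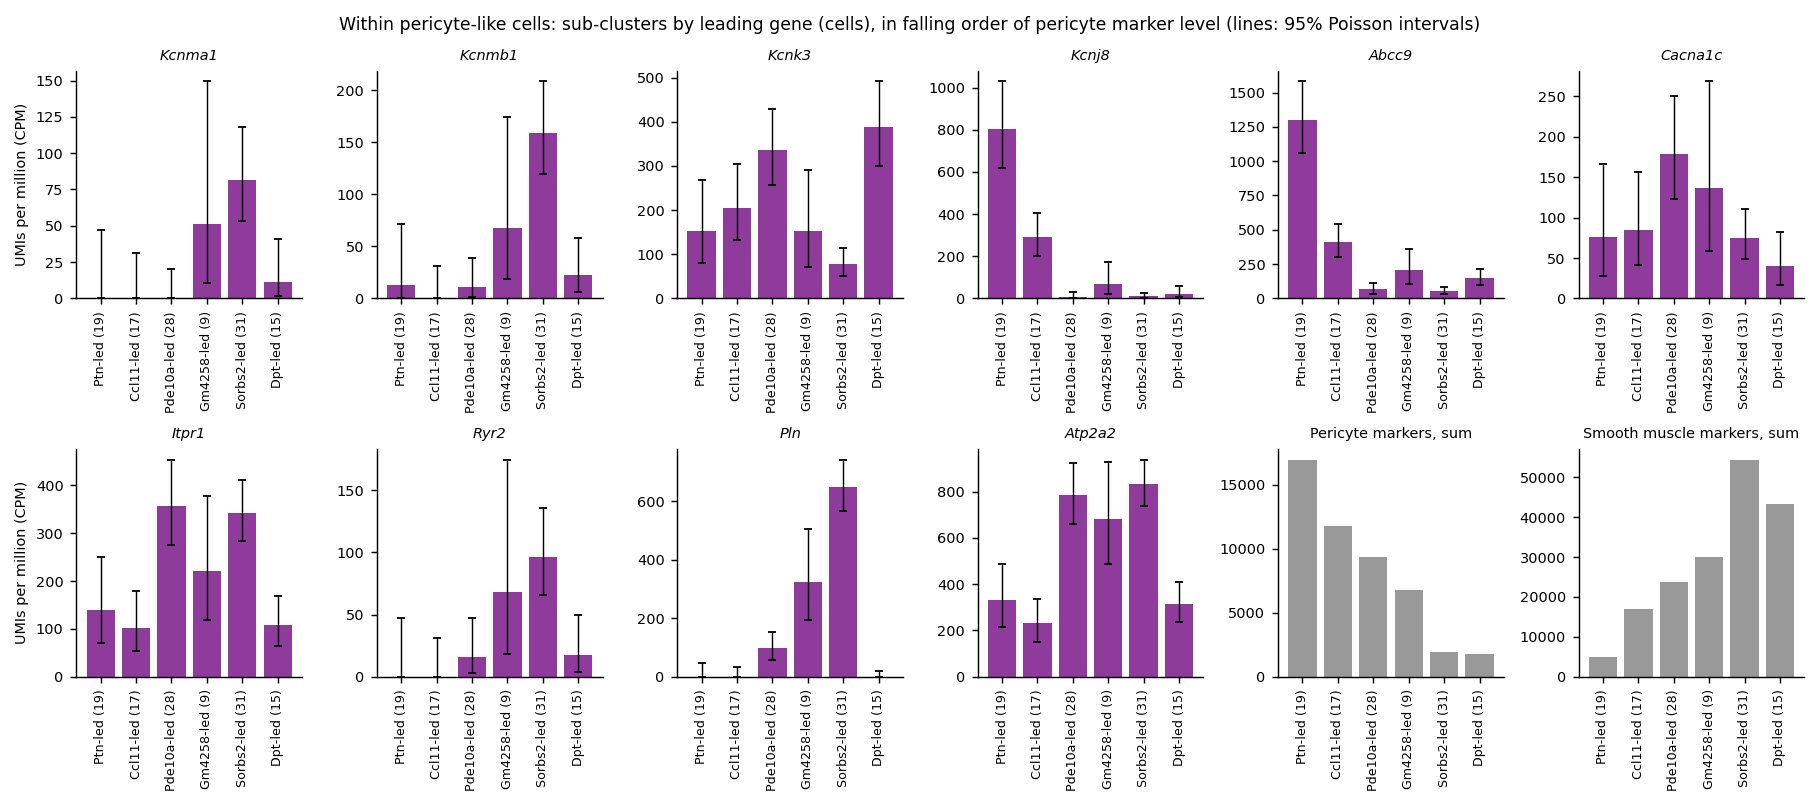
Level of each gene (CPM, vertical axis, from 0) in the 6 sub-clusters of the pericyte-like class, in falling order of their summed pericyte markers from left to right, with the summed markers in grey panels. Bars are pooled levels and lines their 95% Poisson intervals. Kcnj8 and Abcc9 were highest in the Ptn-led sub-cluster and Pln in the Sorbs2-led one.

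The ATP-sensitive channel genes went with the pericyte markers. The Ptn-led sub-cluster had Kcnj8 at 804 CPM (63 UMIs in 15 of 19 cells) and Abcc9 at 1302 CPM (102 UMIs in 19 of 19 cells), and the Ccl11-led one had Kcnj8 at 289.9 CPM and Abcc9 at 409 CPM. In both, Pln, Ryr2 and Kcnma1 had no UMI, which allows levels of up to 38.3 CPM in the Ptn-led and 25.6 CPM in the Ccl11-led sub-cluster. Pln, Ryr2 and the calcium-activated channel genes were highest in the sub-cluster with the most smooth muscle markers. The Sorbs2-led sub-cluster had Pln at 649.8 CPM, which was 216 of the 253 Pln UMIs of the class in 28 of 31 cells, with Ryr2 at 96.3 CPM, Kcnma1 at 81.2 CPM, Kcnmb1 at 159.5 CPM and Atp2a2 at 833 CPM. Its Kcnj8 was 9.0 CPM and its Abcc9 54.2 CPM. The Dpt-led sub-cluster, next in summed smooth muscle markers at 43308 CPM, did not share this, with Kcnma1 at 11.4 CPM, Kcnmb1 at 22.8 CPM, Ryr2 at 17.1 CPM and no Pln UMI. The other 37 Pln UMIs of the class all lay in the Pde10a-led sub-cluster and the small Gm4258-led one with T cell markers. The Pln level of the 88 cells outside the Sorbs2-led sub-cluster was thus not shared by all of them. Kcnk3 followed neither group, with 153 CPM in the Ptn-led, 204.6 CPM in the Ccl11-led, 335 CPM in the Pde10a-led (21 of 28 cells), 78.2 CPM in the Sorbs2-led and 387.5 CPM in the Dpt-led sub-cluster (14 of 15 cells). The Pde10a-led sub-cluster, with pericyte markers but Kcnj8 at 5.4 CPM from 1 UMI, had Cacna1c at 178 CPM, Itpr1 at 357 CPM and the olfactory receptor gene Olfr558 at 427 CPM. Over the 119 cells, 33 of the 34 with a Kcnj8 UMI also had an Abcc9 UMI, out of 60 with Abcc9. By contrast 2 of these 34 had a Pln UMI, out of 37 with Pln, and 16 of the 22 with Ryr2 had one.

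Between the 4 smooth muscle-like clusters most of the genes were at like levels. These clusters were led by Tnnt2, Actc1 and Des (1342 cells), by Igfbp2 and Fn1 (1606 cells), by Tcap (1344 cells) and by the early response and heat shock genes Fosb and Hspa1b (470 cells). The highest over the lowest cluster came to between 1.06 and 1.36 for 7 genes, and to 6.43 for Kcnk3, 2.67 for Pln and 2.502 for Abcc9. The Tnnt2-led cluster set all 3 apart. Kcnk3 had 45.8 CPM there, against 7.88, 8.12 and 7.12 CPM in the Igfbp2-, Tcap- and Fosb-led clusters, a ratio of 5.83 over these together (5.10 to 6.67). Pln had 49.5 CPM in the Tnnt2-led cluster, against 19.1, 18.5 and 23.1 CPM in the Igfbp2-, Tcap- and Fosb-led ones, a ratio of 2.54 (2.29 to 2.81). Abcc9 went the other way with 64.0 CPM in the Tnnt2-led cluster, against 160.1, 147 and 159 CPM in the same 3 clusters, a ratio of 0.411 (0.383 to 0.441). Kcnj8, the pore that Abcc9 partners, had a ratio of 0.803 (0.699 to 0.920), from 18.7 CPM in the Tnnt2-led and 22.7, 25.4 and 20.9 CPM in the other clusters. The L-type channel gene Cacna1c had 33.8 CPM in the Tnnt2-led cluster, against 34.3, 35.7 and 35.6 CPM in the others, a ratio of 0.967 (0.871 to 1.07). Cardiomyocyte markers summed to 36.4 CPM in the Tnnt2-led cluster, with Myl3 and Sbk2 at 0.

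The Abcc9 and Kcnk3 differences had the same direction in each animal, though the size for Kcnk3 varied. At 88 weeks Kcnk3 differed little between the Tnnt2-led (28.3 CPM, 48 cells) and Tcap-led (21.1 CPM, 43 cells) clusters. Whether that difference exceeded counting error was not tested. In the Tnnt2-led cluster Abcc9 had 69.6, 47.3 and 56.5 CPM at 81, 84 and 88 weeks, against 133, 163 and 167 CPM in the Igfbp2-led and 132, 136 and 120.0 CPM in the Tcap-led cluster and 138, 137 and 160.3 CPM in the Fosb-led cluster. Kcnk3 had 44.0, 101 and 28.3 CPM there, against 3.32, 16.5 and 8.11 CPM in the Igfbp2-led and 12.3, 6.96 and 21.1 CPM in the Tcap-led cluster and 12.5, 12.7 and 3.08 CPM in the Fosb-led cluster. For both genes the Tnnt2-led sets lay apart from the sets of the other 3 clusters. Both were among the 3 members that differed most between the pooled clusters. The share of all genes with sets that lie apart in this way was not counted. Pln had 25.6, 62.0 and 32.02 CPM in the Tnnt2-led cluster, against 11.6, 31.0 and 23.2 CPM in the Igfbp2-led and 24.6, 13.9 and 14.7 CPM in the Tcap-led cluster and 18.8, 48.4 and 12.3 CPM in the Fosb-led cluster, and these sets overlapped. In cells without a hashtag the Tnnt2-led cluster had 43.9 CPM of Kcnk3, 50.1 CPM of Pln and 65.0 CPM of Abcc9. Clusters of the same cells were not tested against each other.

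Inside the Tnnt2-led cluster Kcnk3 and Pln were highest in different sub-clusters. Kcnk3 was 85.6 CPM in its Actc1-led sub-cluster (362 cells) and 83.0 CPM in its Grp-led one (147 cells), where Pln was 36.5 CPM and 7.2 CPM. Pln was highest in the Ntng1-led sub-cluster (61 cells) at 124 CPM, where Kcnk3 was 29.3 CPM. The Sphkap-led sub-cluster (360 cells) had Kcnk3 at 9.3 CPM and Pln at 52.1 CPM. The 380 cells with a Kcnk3 UMI had Pln at 50.2 CPM, against 49.1 CPM in the 962 cells without one, whereas Actc1, the cardiac actin gene, was at 365 CPM in the cells with Kcnk3, against 108.5 CPM in those without. Tnnt2, the first leading gene of this cluster, went the other way, at 663 CPM in the cells with Kcnk3, against 798 CPM in those without. Median UMIs were 10126.5 in the cells with and 9906 in the cells without Kcnk3, and the split was chosen after the values were seen.

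Low levels outside the mural cells were set against the smooth muscle RNA found there. T cell-like cells had 3.86% of the summed smooth muscle markers of smooth muscle-like cells, and Kcnma1 at 3.75%, Kcnmb1 at 3.71% and Ryr2 at 3.50% of their smooth muscle-like levels lay beside that share. Abcc9 at 6.10% (4.83 to 7.62) and Kcnk3 at 8.84% (4.93 to 14.7) lay above it, and Atp2a2 at 18.6% and Itpr1 at 42.004% far above. In endothelial-like cells, with 3.52% of the markers, Kcnma1 stood at 2.70%, Kcnmb1 at 2.77% and Ryr2 at 2.44%, Kcnk3 at 25.1% (16.2 to 37.3) and Abcc9 at 14.2%. Erythroid-like barcodes held 65.1% of the smooth muscle markers and between 56.1% and 73.9% of the smooth muscle-like level of every member. An unnamed cluster of 318 cells with smooth muscle markers and T cell genes had levels like those of smooth muscle-like cells, with Kcnmb1 at 183 CPM, Atp2a2 at 672 CPM and Abcc9 at 136 CPM.

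**Figure D5:**
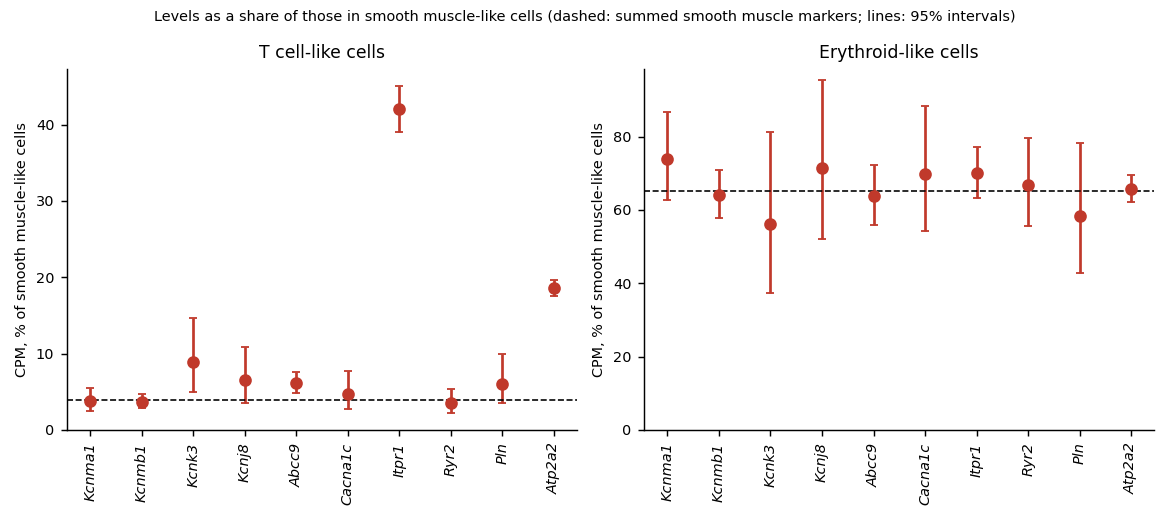
Level of each gene in T cell-like cells and in erythroid-like barcodes as a percentage of its level in smooth muscle-like cells (axis in percent), with 95% exact intervals. Dashed lines mark the share of the summed smooth muscle markers, 3.86% in T cell-like cells and 65.1% in erythroid-like barcodes. Itpr1 at 42.004% and Atp2a2 at 18.6% stood above the line in T cell-like cells.

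Other genes of the same pathways were counted from lists chosen with earlier results of these data known. Over fibroblast-like cells, the potassium channel list had 10 of 40 measured genes tested, with 5 higher, 3 lower and 2 neither (median log2 fold change 1.64). Kcnab1, a beta subunit of voltage-gated potassium channels, averaged 160.7 CPM in smooth muscle-like and 9.43 CPM in fibroblast-like cells, a log2 fold change of 4.32 ± 0.24 (edgeR adjusted p = 9.8e-15). Kcnt2, a sodium-activated potassium channel, was lower at 10.5 CPM in smooth muscle-like cells, against 48.5 CPM in fibroblast-like cells, and Kcne4, a channel accessory subunit, at 9.49 CPM in smooth muscle-like cells, against 32.3 CPM in fibroblast-like cells. The calcium entry list had 16 of 27 tested, with 5 higher, 3 lower and 8 neither, and a median of 0.01, near that of all genes. The L-type channel's auxiliary subunit gene Cacnb2 was higher at 45.8 CPM in smooth muscle-like cells, against 4.34 CPM in fibroblast-like cells, and Stim2, a sensor of store calcium, lower at 18.8 CPM in smooth muscle-like cells, against 43.2 CPM in fibroblast-like cells. The store release list had 19 of 27 tested, with 9 higher, 5 lower and 5 neither (median 0.73). Mrvi1, the partner of Itpr1 through which cyclic GMP kinase restrains release, averaged 288 CPM in smooth muscle-like cells, against 19.8 CPM in fibroblast-like cells, and Jph2, which ties the store to the plasma membrane, 154 CPM in smooth muscle-like cells, against 15.4 CPM in fibroblast-like cells. Itpr2, another inositol trisphosphate receptor, was lower at 9.58 CPM in smooth muscle-like cells, against 69.3 CPM in fibroblast-like cells.

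The uptake and extrusion list had 14 of 20 tested over fibroblast-like cells, with 5 higher, 4 lower and 5 neither (median 0.26). Among them the plasma membrane pump gene Atp2b4 averaged 229 CPM in smooth muscle-like cells, against 61.9 CPM in fibroblast-like cells, and the sodium-calcium exchanger gene Slc8a1 99.8 CPM in smooth muscle-like cells, against 31.1 CPM in fibroblast-like cells. The mitochondrial calcium uniporter gene Mcu was lower, at 9.49 CPM in smooth muscle-like cells, against 36.2 CPM in fibroblast-like cells. The effector list had 21 of 25 tested, with 14 higher, 1 lower and 6 neither (median 1.54), led by the myosin light chain kinase gene Mylk at 1367 CPM in smooth muscle-like cells, against 76.8 CPM in fibroblast-like cells. In all, 80 of 139 list genes were tested, 38 higher and 16 lower, beside the 11.3% and 14.1% over all genes. As for the members, a list gene could pass the low-count filter through either class alone. Over endothelial-like cells 89 were tested, 46 higher, 15 lower and 28 neither, beside 17.5% higher and 17.8% lower over all genes, with a median of 1.27. By list, 9 of 16 tested potassium channel genes were higher and 5 lower, 9 of 17 calcium entry genes higher and 3 lower, 9 of 19 store release genes higher and 3 lower, 4 of 15 uptake and extrusion genes higher and 3 lower (median -0.35), and 15 of 22 effector genes higher and 1 lower. Among the higher were Kcnh2, a voltage-gated potassium channel, at 36.5 CPM in smooth muscle-like and 1.35 CPM in endothelial-like cells, and Cacna2d1, an auxiliary subunit of voltage-gated calcium channels, at 139 CPM in smooth muscle-like and 6.36 CPM in endothelial-like cells. Endothelial-like cells had the higher level of 2 further receptors: Itpr2 had 9.58 CPM in smooth muscle-like and 143 CPM in endothelial-like cells, and Itpr3 had 1.69 CPM in smooth muscle-like and 31.6 CPM in endothelial-like cells. Kcna5, a voltage-gated potassium channel, had 0.676 CPM in smooth muscle-like and 46.6 CPM in endothelial-like cells. Pooled, Kcna5 had 39.1 CPM in pericyte-like cells (37 UMIs), against 0.4 CPM in smooth muscle-like and 43.4 CPM in endothelial-like cells. Cd300lg was among the leading genes of both the Gpihbp1-led endothelial-like cluster and the Ptn-led pericyte-like sub-cluster. The part of endothelial RNA in the pericyte-like Kcna5 level was not tested. Kcne4 had 57.0 CPM in pericyte-like cells, against 13.1 CPM in smooth muscle-like cells.

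Across 17 clusters of at least 50 cells, the genes most like each member were taken from 6615 genes by Pearson's r of log2(CPM + 10). The clusters share 1 pool and its free RNA, so the values are a description. Kcnma1 was most like Thsd4 (0.99), Dtna (0.98) and Cspg4 (0.97), Kcnmb1 like Cnn1, Scube3 and Sh3bgr (0.99 each), and Ryr2 like Speg (0.99), Ldb3 and Plin4 (0.98 each). Kcnk3 was most like Slc2a4 (0.98), Pln (0.95) and Gm13861 (0.89), and Pln like Slc2a4 (0.97), Gm13861 (0.96) and Kcnk3 (0.95). Within clusters Kcnk3 and Pln did not go together in this way. Of 119 pericyte-like cells 20 held both, against 21.5 from the product of their shares. In the Tnnt2-led cluster Pln was at 50.2 CPM in cells with Kcnk3 and 49.1 CPM in cells without. Kcnj8 was most like Kcne4 (0.94), Foxs1 and Abcc9 (0.91), and Abcc9 like Slit3 (0.95), Plekhh2 (0.92) and Kcnj8 (0.91). Cacna1c was most like Heyl, Fgf1 and Ano1 (0.97 each), Itpr1 like Fbxo9, Fyco1 (0.95) and Anxa11 (0.90), and Atp2a2 like Plekhg3 (0.99), Ryr2 and Carmn (0.98 each). Among the members themselves Ryr2 and Atp2a2 had the highest r at 0.98, and Kcnmb1 and Kcnj8 the lowest at 0.35.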

How the data were processed

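The deposited matrix holds raw UMI counts per gene and barcode, not normalised, made with Cell Ranger 6.0.1 per the file headers; the submitters' processing notes name Cell Ranger, Seurat 4.0.5 and mm10. Hashtags were called with HTODemux of Seurat 5.3.0 (quantile 0.99) with cutoffs of 129, 765 and 266 UMIs. Cells had at least 500 genes, 1000 UMIs and under 15% mitochondrial UMIs, and 11301 of the 26916 barcodes passed, which hold 900 to 104654 UMIs each. Scrublet scores above 0.2 marked 690 (6.11%) as doublets, a limit set after the scores were seen, since the automatic one marked 1 cell. A further 490 with more than 1 hashtag were left out. Clustering used igraph 0.11.9 within scanpy 1.11.5 (Leiden at resolution 0.8 on 15 neighbours and 30 components of 2000 variable genes, from log values at 10000 UMIs a cell), without the members, list, mitochondrial and ribosomal genes. A class name needed a marker score of at least 1.5 and 3 markers up 2-fold, limits known from earlier results. A cluster with at least 2 T cell lineage genes among its top 10 got no other name. The authors' own cell annotation was not used here, so class names can differ from theirs.

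Counts of cells with 1 hashtag were summed per class and animal (at least 10 cells) and tested with edgeR 4.0.16 (quasi-likelihood, TMM, low-count filter, animal as block), two-sided, checked on data drawn with known changes. DESeq2 1.42.0 was an alternative. Intervals cover counting error only. The members, lists, marker genes and tests were chosen with earlier results of these data known. Named genes were all members, the 3 most alike genes for each, and per list and direction the 2 called genes that changed most, at 20 CPM or more with the same sign in every set; of these a selection is given, and some genes are not reported here. Sub-clusters, Kcna5 and Kcne4 levels in pericyte-like cells and the Kcnk3 split were chosen after values were seen. List symbols not found among the gene symbols were Irag1, Irag2, Arln and Slc24a6, which does not show that a gene was unmeasured under another name. R 4.3.3 and Python 3.11.15 were used.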

Additional observations from a re-analysis of the deposited data

How the results depend on the processing

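Of 142 alternative values of the members' fold changes over fibroblast-like cells, 137 kept their side of the call thresholds, 2 lost and 3 gained a call and 0 changed sign; over endothelial-like cells 146 of 150 kept it and 4 lost a call. Over fibroblast-like cells the 1106 higher and 1380 lower genes became 426 and 443 where a hashtag needed 2 times its cutoff and 688 and 730 without cells holding T cell RNA, where fewer genes were tested (3164 and 5916). The 8 members called higher became 2 of 4 tested and 5 of 8 tested in these. Members called lower ran from 0 to 1 when each animal was left out in turn, and were 1 with the stricter hashtags (Abcc9, -1.18) and 1 with library totals alone (Kcnj8, -1.09); library totals moved the median of all genes to -0.19. DESeq2 called 807 higher and 1043 lower over fibroblast-like cells. Itpr1 over endothelial-like cells was 0.83 without doublet removal, 0.97 with library totals and 0.79 with the stricter hashtags, and over fibroblast-like cells 0.98 with the stricter hashtags; Kcnk3 over endothelial-like cells was 1.30 there (edgeR adjusted p = 0.094).

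Without the animal as a replicate block, edgeR called 1035 higher and 1198 lower over fibroblast-like cells and 1768 and 1789 over endothelial-like cells, with 8 and 10 members higher; the animal is given by the hashtag, not by the library numbers in the labels.

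Of 280 alternative member levels 240 moved by less than their counting interval. Pericyte-like over smooth muscle-like ratios with exactly 1 hashtag were 9.57 for Kcnk3, 3.36 for Kcnj8, 1.91 for Cacna1c and 0.843 for Atp2a2. Without cells holding T cell RNA they were 2.14 for Abcc9, 0.889 for Itpr1 (reversed), 0.229 for Ryr2 and 8.31 for Pln, and under 10% mitochondrial UMIs 7.21 for Pln. Without the Sorbs2-led sub-cluster they were 16.4 for Kcnk3, 7.78 for Kcnj8, 2.45 for Abcc9, 0.985 for Itpr1 (reversed), 2.23 for Pln, 0.733 for Atp2a2, 0.252 for Ryr2, 0.115 for Kcnma1 and 0.0887 for Kcnmb1, an alternative chosen after seeing the data. The Dpt-led sub-cluster, low in pericyte markers, stayed in that alternative. The causes were not tested. Without doublet removal endothelial-like levels were 14.8 CPM for Kcnma1, 39.0 CPM for Kcnmb1 and 11.4 CPM for Ryr2. The alternatives of the pericyte-like test other than 25% mitochondrial UMIs were not run, since fewer than 2 animals had 10 cells. The number of cells limits the pericyte-like values, with 119 in all and 23 with a hashtag.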
